A study of Mus musculus with 12 samples.

Results

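The enzymes that place and remove methyl groups on histones were followed in the mouse melanoma cell line B16F10, an established line, in libraries labelled as knockout of Ep300, of Crebbp or of both. Members were the protein-coding genes of the count table whose symbols name histone lysine methyltransferases (the Kmt2, Kmt5, Setd, Setdb, Ezh, Ehmt, Suv39h and Nsd genes), lysine demethylases (Kdm), PR-domain proteins (Prdm) or arginine methyltransferases (Prmt). The rule found 67 genes among the 54752 of the table, and 59 of them had enough counts to be tested. The other 2 rows that match by symbol, the pseudogene Kdm4dl and the antisense gene Kdm6bos, are not protein-coding and were left out. RNA was sequenced from 12 libraries in 4 groups of 3: libraries labelled as knockout of Ep300 and Crebbp together (double knockout), as Ep300 knockout, as Crebbp knockout, and as wild-type control. All were grown in DMEM with 10% serum, and no treatment is given. Whether a knockout line is 1 clone or a pool is not stated, nor is the origin of the 3 libraries of each group from separate cultures, and so p-values speak of the spread among these libraries alone, which may be technical.

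Histone methylation marks the state of a gene. Methylation of lysine 4 of histone H3 (H3K4) is found at active promoters and enhancers, H3K36 methylation along transcribed genes, and H3K9, H3K27 and H4K20 methylation mainly in silent chromatin. Each mark has writers, most of which carry a SET domain, and erasers, either the flavin-dependent Kdm1 enzymes or the Jumonji enzymes. Ep300 and Crebbp encode p300 and CBP, acetyltransferases of histones and coactivators that work at the same enhancers as the H3K4 methyltransferases KMT2C and KMT2D and that acetylate H3K27, the residue the EZH enzymes methylate. In melanoma, SETDB1, EZH2 and KDM5B are among the members most studied.

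The labels and the libraries were checked first. The 12 libraries held 64257251 to 85604243 counts. Melanocyte markers (7 of 7, summed) lay at 6526 to 6694 CPM (TMM-scaled counts divided by the library total in units of 1e6) in the double-knockout libraries, at 14299 to 15024 CPM with Ep300 knockout, at 18351 to 19164 CPM with Crebbp knockout and at 19448 to 21397 CPM in control. Of 6 immune markers, Ptprc, Cd3e, Adgre1 and Itgam had at most 1 count in any library. Another, Cd68, a lysosomal protein not confined to macrophages, averaged 6.18 CPM in double knockout and 1.87 CPM in control. Of 6 fibroblast markers, Dcn and Lum had at most 2 counts in any library, and the list summed to 15 to 16.4 CPM in double knockout, 18.4 to 24.4 with Ep300 knockout, 13 to 16.8 with Crebbp knockout and 10.4 to 12.8 in control. The 4 epithelial and the 4 endothelial markers each summed to at most 0.560 CPM. The part of the lower melanocyte markers in the results was not tested. Crebbp averaged 64.0 CPM in the libraries labelled double knockout, 80.7 with Ep300 knockout, 34.5 with Crebbp knockout and 64.7 in control, and Ep300 averaged 148, 85.1, 104 and 94.4 CPM in the same order of groups. Crebbp was lower than control in the libraries labelled Crebbp knockout (log2 fold change -0.91 ± 0.12, adjusted p = 0.000527), but Ep300 was not called in those labelled Ep300 knockout (-0.15 ± 0.10, adjusted p = 0.376). In the libraries labelled double knockout, Ep300 was called higher than in control (0.65 ± 0.10, adjusted p = 7.33e-05) and Crebbp was not called (-0.02 ± 0.11, adjusted p = 0.922), or called lower with the length and GC offsets used below (-0.17, adjusted p = 0.0188). Transcript counts over a whole gene do not show which exons are present and are no check of the protein. Group names below are those of the labels. In bulk RNA, fewer cells of a kind and less RNA per cell cannot be told apart.

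The members differed widely in level. Per kilobase of exon, the highest were Prmt1, which makes most of the asymmetric dimethylarginine of the cell, at a mean of 55.7 RPKM over the 12 libraries, Kmt5a, the H4K20 monomethyltransferase, at 32.7 RPKM, Prmt5, which makes symmetric dimethylarginine, at 24.2 RPKM, and Ezh2, a catalytic subunit of Polycomb repressive complex 2 (PRC2), at 23.6 RPKM. The median of the tested members was 5.63 RPKM, against 2.67 RPKM for the 18430 tested genes with a known exon length. The 8 members below the filter were Kdm5d with 0 counts in all 12 libraries, Prdm8 and Prdm13, also at 0, and Prdm1, Prdm6, Prdm12, Prdm14 and Prmt8, each with at most 8 counts in a library. A count of 0 allows up to 0.0321 to 0.0525 CPM, by library (3 counts, counting error only). Prdm1, the repressor BLIMP1 of lymphoid cells and the germ line, had 4, 6 and 5 counts in the double-knockout libraries, 0, 8 and 0 with Ep300 knockout, 4, 0 and 4 with Crebbp knockout and 2, 1 and 5 in control. Exon lengths of the tested members, with a median of 7110 bases, exceeded the median of 3336.5 bases for all tested genes.

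**Figure D1:**
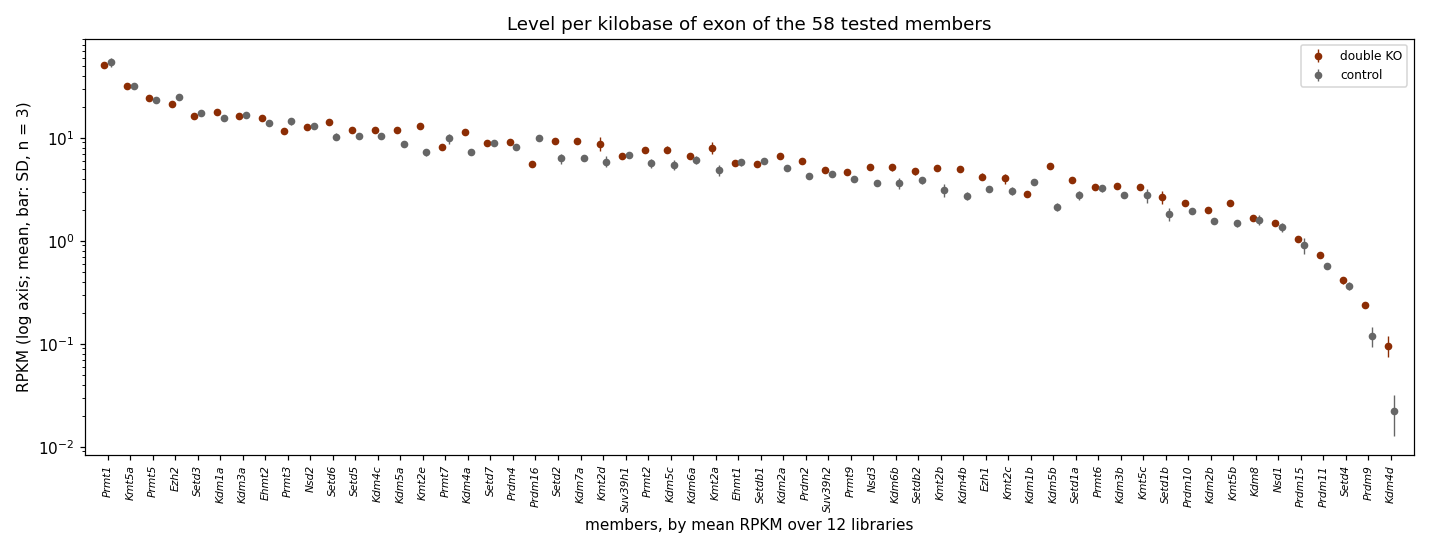
Mean RPKM (log axis, bar: SD, n = 3) of 58 tested members in the double-knockout and control libraries, ordered by the mean over the 12 libraries. Prmt1 stands highest at 55.7 RPKM on average, and Kdm4d and Prdm9 are the lowest tested members.

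In the libraries labelled double knockout, most of these enzymes had more transcript than in control. Of 59 tested members, 33 rose and 6 fell, by edgeR's quasi-likelihood test with Benjamini-Hochberg adjustment over all 18434 tested genes. Of all tested genes, 49.4% were called in this comparison, 24.7% higher and 24.6% lower. The members' share was thus above the background on the higher side, with a median log2 fold change of 0.24, against -0.02 for all tested genes. That background takes in many genes with shorter exons than the members. Among genes in the 75 to 95% and longest 5% of exon length, which hold 24 and 15 members, 37.3% and 43.6% were called higher. With a filter of 1 CPM in 3 libraries, 38 members (32 higher, 6 lower) and 61.7% of all tested genes were called. The double-knockout and control libraries did not overlap for 37 members that lay higher and 7 that lay lower, against 30.1% and 29.6% of all tested genes. Leaving out 1 library at a time gave 27 to 33 members higher and 4 to 6 lower. Of the 39 calls, 27 held in each of 21 alternatives (23 higher and 4 lower).

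Most H3K4 methyltransferases rose. Of 9 tested, 8 were called higher in the libraries labelled double knockout, where 24.7% of all tested genes were. Their median log2 fold change was 0.58, and 0.32 with the length and GC offsets described below, with the same number called. The exception was Setd7, which monomethylates H3K4 and many other proteins, at -0.01 ± 0.09 (adjusted p = 0.934). Kmt2e, a member of the KMT2 family that reads H3K4 methylation and is not established as an active methyltransferase, stood at 136, 143 and 127 CPM in double knockout, against 79.6, 69.0 and 78.6 CPM in control. The 3 double-knockout libraries all lay above the controls, and Kmt2e rose by 0.84 ± 0.10 on the log2 scale (adjusted p = 3.96e-06). Exons of Kmt2e share 9.31% of their bases with the protein-coding gene Srpk2 on the opposite strand. Kmt2a, the MLL1 gene rearranged in leukaemia, stood at 130, 151 and 116 CPM in double knockout and 88.8, 69.3 and 82.4 CPM in control (0.72 ± 0.13, adjusted p = 0.000364), and its close paralog Kmt2b was called higher by 0.70 ± 0.12. Again the groups did not overlap.

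Kmt2c and Kmt2d, which encode the enhancer monomethyltransferases MLL3 and MLL4, were called with wider errors. Kmt2c stood at 78.9, 91.6 and 74.3 CPM in double knockout, against 66.1, 55.6 and 63.7 CPM in control (0.40 ± 0.13, adjusted p = 0.0153). Its call was lost without control replicate 2 (adjusted p = 0.0621) and without double-knockout replicate 2 (adjusted p = 0.0802). Kmt2d stood at 176, 200 and 149 CPM in double knockout and 124, 101 and 126 CPM in control (0.58 ± 0.16, adjusted p = 0.00653). The controls lay below the double-knockout libraries for each gene, with double-knockout replicate 2 the highest library of both. Setd1a and Setd1b, the catalytic subunits of the complexes that trimethylate H3K4 at promoters, were higher by 0.50 ± 0.10 and 0.55 ± 0.15. Setd1a shares 51.8% of its exon bases with the overlapping gene Gm49388 on the same strand, so its counts are uncertain. Prdm9, the meiotic H3K4 methyltransferase that sets recombination hotspots, had 95, 92 and 92 counts in the double-knockout libraries and 44, 22 and 44 counts in control (1.00 ± 0.22, adjusted p = 0.0016).

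Most demethylases rose as well. Of 17 tested, 13 were higher in the libraries labelled double knockout, 1 was lower and 3 were not called. Of all tested genes, 24.7% were called higher and 24.6% lower. The median log2 fold change of the 17 was 0.40. With the offsets, 12 were called higher and 1 lower, with a median of 0.19, where 25.6% and 26.7% of all tested genes were. The largest log2 change of a member other than the scarce Kdm4d was that of Kdm5b, which removes H3K4 di- and trimethylation and is linked to slowly cycling cells in human melanoma. It stood at 89.4, 94.3 and 82.5 CPM in double knockout, against 38.0, 32.2 and 35.6 CPM in control. The lowest double-knockout library was above the highest control, and Kdm5b rose by 1.33 ± 0.10 on the log2 scale (adjusted p = 2.58e-08). The paralogs Kdm5a and Kdm5c were called higher by 0.45 ± 0.07 and 0.49 ± 0.11. Per kilobase of exon, Kdm5b reached 0.452 ± 0.021 of the level of Kdm5a in double knockout and 0.245 ± 0.009 of it in control (SD, n = 3 each).

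The Kdm4 enzymes, which remove H3K9 methylation and, but for Kdm4d, H3K36 methylation, were all called higher. Kdm4b stood at 25.5, 24.8 and 23.1 CPM in double knockout and 14.6, 12.3 and 13.3 CPM in control, without overlap (0.87 ± 0.09, adjusted p = 1.1e-06). Kdm4a rose by 0.62 ± 0.09 and Kdm4c by 0.20 ± 0.06. Kdm4d, known mainly from testis, had only 30, 25 and 19 counts in double knockout and 7, 2 and 5 counts in control (2.03 ± 0.47, adjusted p = 0.0021). Kdm7a, an eraser of H3K9 and H3K27 methylation, stood at 93.9, 99.1 and 88.5 CPM in double knockout, against 65.6, 60.3 and 65.2 CPM in control (0.56 ± 0.07, adjusted p = 1.18e-05). The double-knockout libraries again lay apart from the controls.

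Of the H3K27 demethylases, Kdm6b was called and Kdm6a was not. Kdm6b, inducible in inflammation, stood at 36.9, 37.6 and 32.9 CPM in double knockout, against 27.1, 21.4 and 26.6 CPM in control (0.51 ± 0.11, adjusted p = 0.00142). Kdm6a, a partner of KMT2C and KMT2D encoded on the X chromosome, stood at 54.6, 57.9 and 55.1 CPM in double knockout and 55.5, 45.9 and 52.6 CPM in control. These overlap, and Kdm6a was not called (0.12 ± 0.07, adjusted p = 0.191). Kdm2a and Kdm2b, which act on H3K36, were called higher at 0.40 ± 0.08 and 0.34 ± 0.10, the call on Kdm2b being lost without double-knockout replicate 1 (adjusted p = 0.0511). Of the H3K9 demethylases Kdm3b was called at 0.27 ± 0.08 and Kdm3a was not (-0.04 ± 0.06, adjusted p = 0.673). Kdm3b lost its call with the length and GC offsets described below (0.07 ± 0.05, adjusted p = 0.256) and without control replicate 2 (0.0602) or double-knockout replicate 1 (0.0563) or 2 (0.0547). A further member, Kdm8, was not called at 0.06 ± 0.11 (adjusted p = 0.668). Of the exon bases of Kdm3b, 24.6% overlap the noncoding gene Gm26538 on the opposite strand. The library kit keeps strand, but the strand setting of the counting is not given, so reads of such pairs cannot be told apart.

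The flavin-dependent pair moved in opposite directions. Kdm1a (LSD1), the H3K4 demethylase of the CoREST complex, stood at 92.2, 94.2 and 91.9 CPM in double knockout and 80.1, 82.4 and 78.8 CPM in control (0.21 ± 0.05, adjusted p = 0.00549), which became 0.12 ± 0.04 (adjusted p = 0.038) with the length and GC offsets. Kdm1b (LSD2) stood at 16.5, 15 and 15.7 CPM in double knockout, against 19.6, 20.1 and 21.4 CPM in control, and fell by 0.37 ± 0.09 on the log2 scale (adjusted p = 0.00421). Neither gene's groups overlap. Exons of Kdm1b share 9.19% of their bases with the protein-coding gene Dek on the opposite strand. The per-kilobase ratio of Kdm1a to Kdm1b was 6.25 ± 0.37 in double knockout and 4.20 ± 0.25 in control.

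The catalytic subunits of PRC2 also parted. Ezh1, which prevails in resting cells, stood at 32.2, 32.9 and 28.2 CPM in double knockout, against 23.1, 22.9 and 24.8 CPM in control (0.40 ± 0.08, adjusted p = 0.000567). Ezh2, which prevails in dividing cells, stood at 140, 141 and 142 CPM in double knockout, against 164, 171 and 165 CPM in control, and fell by 0.24 ± 0.06 on the log2 scale (adjusted p = 0.00302). In both cases the groups lie apart, and the calls held in all 21 alternatives. The per-kilobase ratio of Ezh1 to Ezh2 was 0.198 ± 0.017 in double knockout, 0.142 ± 0.008 with Ep300 knockout, 0.125 ± 0.010 with Crebbp knockout and 0.127 ± 0.008 in control.

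**Figure D2:**
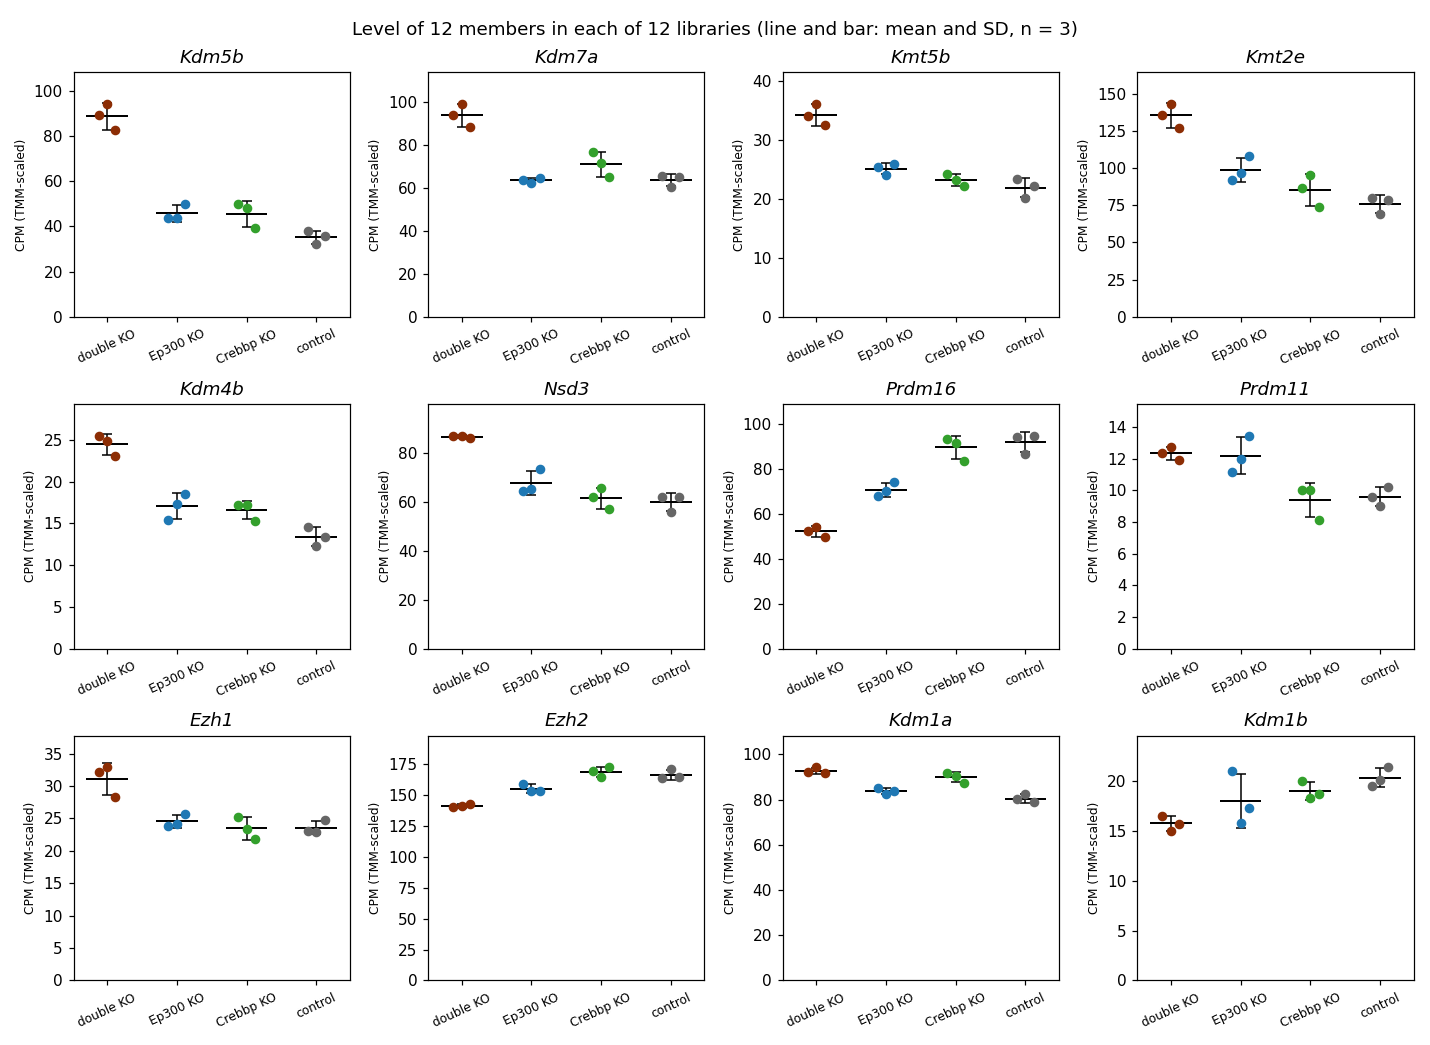
TMM-scaled CPM of 12 members in each library, by group; points are libraries, the line and bar the mean and SD (n = 3). Kdm5b reaches 82.5 to 94.3 CPM in the double-knockout libraries, above all other libraries, while Prdm16 is lowest there.

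Few genes grouped as H3K9 writers, with PRDM proteins kept apart, were called without the offsets, where 49.4% of all tested genes were. Of 6 tested, Setdb2 was called higher (0.29 ± 0.09, adjusted p = 0.0111; 0.0589 without double-knockout replicate 2), and 5 were not called. Setdb1, which silences retroelements, stood at 39.3, 40.2 and 35.4 CPM in double knockout and 43.7, 37.9 and 40.5 CPM in control (-0.09 ± 0.08, adjusted p = 0.385). Ehmt2 (G9a), which dimethylates H3K9 in euchromatin, stood at 89.5, 85.9 and 82.0 CPM in double knockout and 80.6, 75.1 and 73.2 CPM in control (0.17 ± 0.08, adjusted p = 0.0968). Its libraries do not overlap, but it was not called, and its sign turned to -0.16 (adjusted p = 0.0216) with the length and GC offsets. With the offsets, 2 of the 6 were called higher (Setdb2 and Suv39h2) and 2 lower (Ehmt1 and Ehmt2). Without them, Ehmt1, Suv39h1 and Suv39h2 were not called at -0.01 ± 0.07, -0.06 ± 0.06 and 0.13 ± 0.06.

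Among H3K36 writers, Setd2, which makes trimethylation on transcribed genes, was higher by 0.55 ± 0.10 (adjusted p = 0.000236). Nsd3, a dimethyltransferase, stood at 87.0, 86.7 and 86.0 CPM in double knockout, against 62.1, 55.8 and 61.7 CPM in control (0.53 ± 0.07, adjusted p = 2.37e-05). Its paralogs Nsd1 (0.15 ± 0.11) and Nsd2 (-0.03 ± 0.08) were not called. Among H4K20 writers, Kmt5b, which adds the second and further methyl groups, stood at 34, 36.1 and 32.5 CPM in double knockout, against 23.3, 20.1 and 22.2 CPM in control. These groups lie apart, and Kmt5b was called higher by 0.64 ± 0.07 (adjusted p = 3.2e-06), whereas Kmt5a (0.01 ± 0.06) and Kmt5c (0.25 ± 0.12, adjusted p = 0.0953) were not called. Of the SETD proteins that act mainly on other targets, Setd6, which methylates the NF-kappaB subunit RelA, was higher by 0.47 ± 0.07 (adjusted p = 3.72e-05). Setd5 was called at the margin (0.18 ± 0.07, adjusted p = 0.0499) and lost the call in 13 of 21 alternatives, among them leaving out any 1 control or double-knockout library, and Setd3, which methylates actin, and Setd4 were not called.

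The PR-domain proteins split. Prdm16, a regulator of brown fat, blood and neural stem cells, stood at 52.6, 54.4 and 49.9 CPM in double knockout, against 94.4, 86.8 and 95 CPM in control, and fell by 0.82 ± 0.07 on the log2 scale (adjusted p = 1.11e-07). It had the largest fall of any tested member, and its libraries do not overlap. Prdm2, Prdm11 and Prdm10 were called higher by 0.49 ± 0.09, 0.36 ± 0.10 and 0.24 ± 0.09. Prdm10 lost its call without control replicate 2 (adjusted p = 0.103) or 3 (0.0581) and without double-knockout replicate 2 (0.104) or 3 (0.0567). Prdm4 and Prdm15 were not called.

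Arginine methyltransferases showed no common direction, with 2 of 7 higher, 2 lower and 3 not called. These shares lie near those of all tested genes, of which 24.7% were called higher and 24.6% lower. Prmt2, a coactivator of nuclear receptors, stood at 26.9, 25.6 and 25.3 CPM in double knockout, against 18.3, 21.2 and 17.9 CPM in control (0.44 ± 0.08, adjusted p = 0.000225), and Prmt9 was called at 0.20 ± 0.06, a call lost without control replicate 1 (adjusted p = 0.0623) or 3 (0.052) and without double-knockout replicate 1 (0.0543) or 2 (0.0598). Prmt3, which methylates a ribosomal protein, stood at 69.4, 69.3 and 68.7 CPM in double knockout and 84.2, 94.0 and 81.7 CPM in control, a fall by 0.33 ± 0.07 (adjusted p = 0.00143). Prmt7, a monomethylating enzyme, stood at 52.8, 46.7 and 48.2 CPM in double knockout and 55.8, 68.0 and 56.9 CPM in control, a fall by 0.29 ± 0.10 (adjusted p = 0.0284). The call on Prmt7 was lost without control replicate 2 (adjusted p = 0.142), without double-knockout replicate 2 (0.105) or 3 (0.0811), and under the replicate block (0.0552). The most abundant arginine methyltransferases, Prmt1 and Prmt5, were not called. Prmt1 stood at 175, 178 and 173 CPM in double knockout and 172, 207 and 179 CPM in control (-0.08 ± 0.08, adjusted p = 0.414), and Prmt5 at 98.6, 96.0 and 96.5 CPM in double knockout and 87.7, 97.8 and 90.2 CPM in control (0.08 ± 0.06, adjusted p = 0.289).

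**Figure D3:**
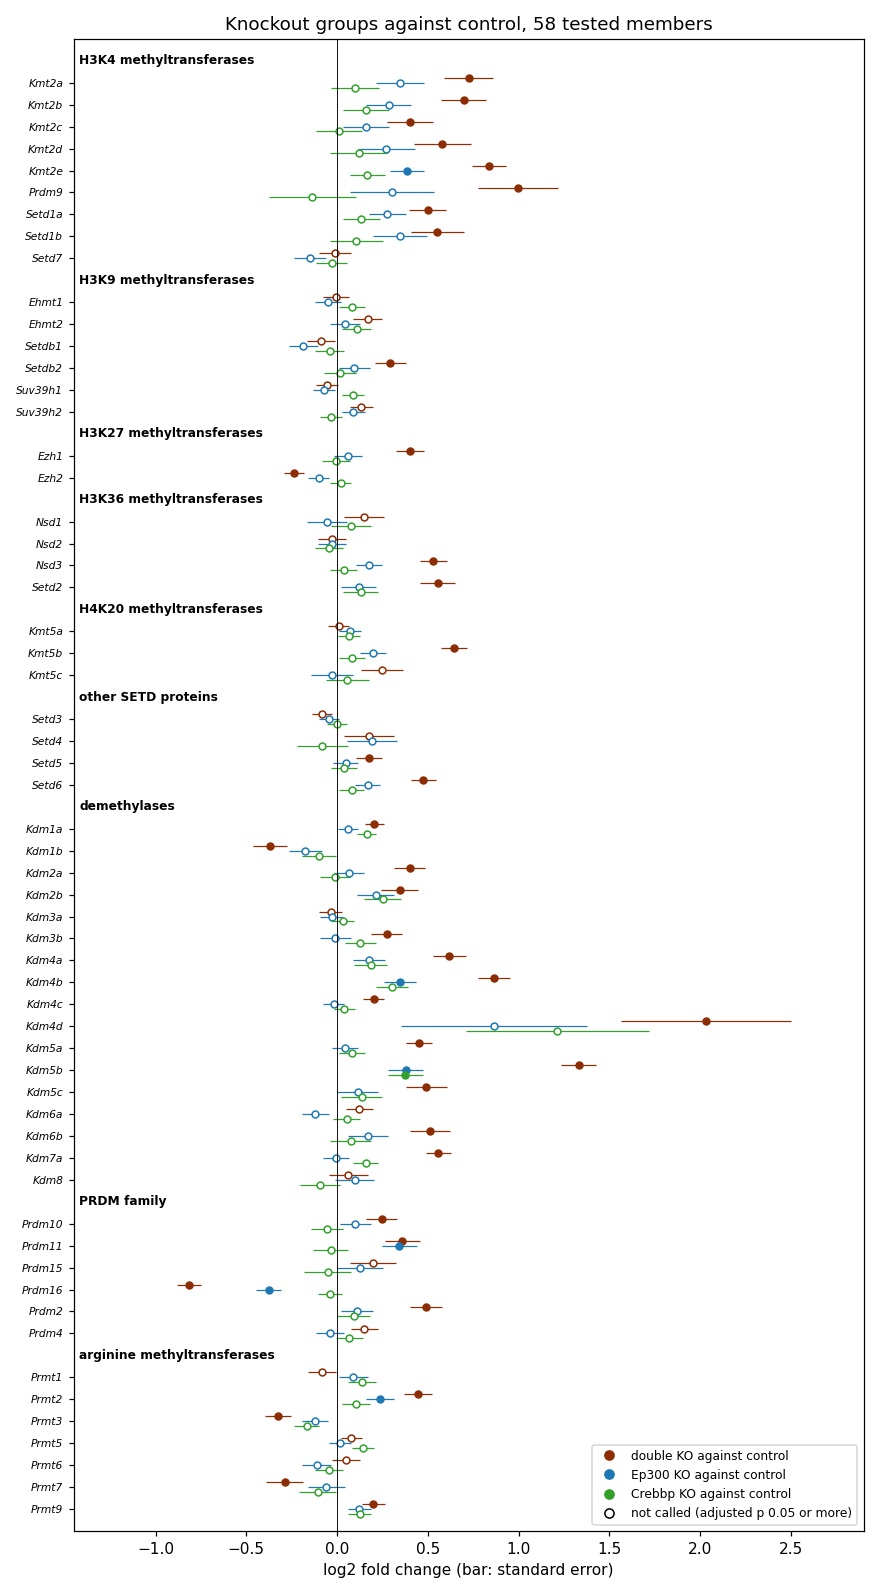
Log2 fold change of 58 tested members against control (bar: standard error, n = 3 per group) in the double, Ep300 and Crebbp knockout, grouped by role; filled points have an adjusted p under 0.05. The H3K4 methyltransferases and demethylases of the double knockout lie mostly right of 0, and Prdm16 lies farthest left at -0.82.

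Gene length and GC content moved with the double-knockout label. Among all tested genes, the median log2 fold change of double knockout against control was -0.18 in the 4608 genes with the shortest exons (up to 1655 bases) and 0.17 in the 922 with the longest (from 11263 bases), where 43.6% were called higher. By GC content, it was -0.07 in the lowest 25% and 0.17 in the highest 10%. The tested members include 15 of the longest and 7 of the most GC-rich genes of these bins, and none of the shortest. When each library was given offsets for length of exons and for GC content, 32 members were called higher and 9 lower, where 25.6% and 26.7% of all tested genes were. The median over the members was then 0.16. Values of several GC-rich members shrank: Kmt2d, at 58.4% GC, moved to 0.24 ± 0.07 (adjusted p = 0.0104), Kdm6b to 0.19 ± 0.06 and Setd1b to 0.21 ± 0.07. Kdm5b stayed at 1.25 ± 0.05 and Prdm16 was at -1.01 ± 0.04. The error of the offsets is not part of these standard errors.

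**Figure D4:**
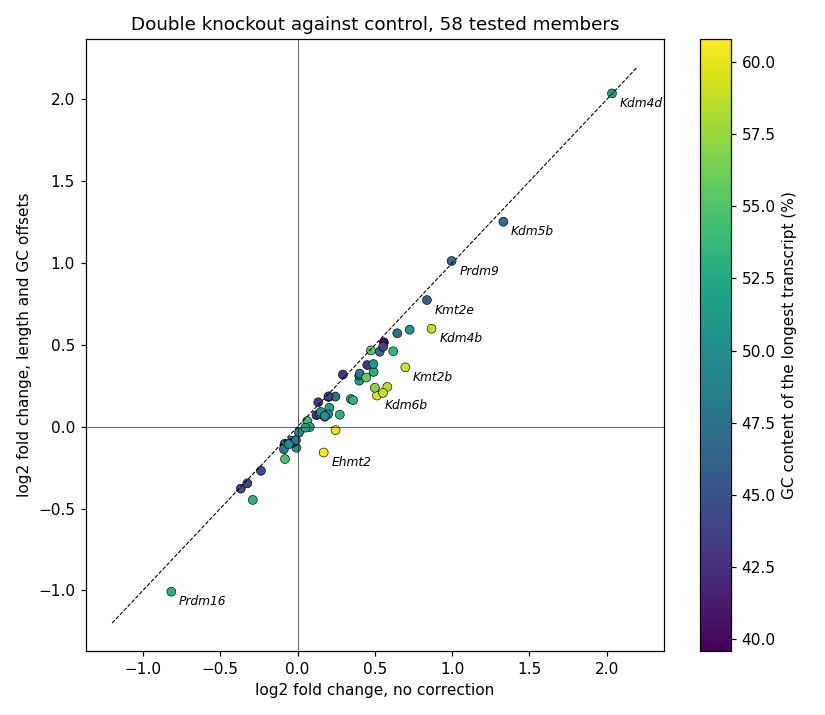
Log2 fold change of double knockout against control for 58 tested members without correction (horizontal) and with offsets for exon length and GC content (vertical), coloured by GC content; the dashed line marks equal values. GC-rich members such as Kdm6b (0.51 without, 0.19 with offsets) fall below the line, and Ehmt2 changes sign.

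In the libraries labelled Ep300 knockout, few members changed. Of 59, 5 rose and 1 fell, a share of 10.2%, where 16.1% of all tested genes were called (7.27% higher and 8.83% lower). Prdm16 stood at 68.1, 70.1 and 74.4 CPM in Ep300 knockout, against 94.4, 86.8 and 95 CPM in control, and fell by 0.38 ± 0.07 on the log2 scale (adjusted p = 0.000881). Kmt2e stood at 92.2, 96.6 and 108 CPM in Ep300 knockout and 79.6, 69.0 and 78.6 CPM in control (0.38 ± 0.09, adjusted p = 0.0106). Both calls held in all 21 alternatives, and neither gene's groups overlap. The other 4 were nearer the threshold.

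Kdm5b stood at 43.7, 43.7 and 50 CPM in Ep300 knockout, against 38.0, 32.2 and 35.6 CPM in control (0.38 ± 0.10, adjusted p = 0.0127), a call lost without Ep300-knockout replicate 3 (adjusted p = 0.0521). Kdm4b stood at 15.4, 17.3 and 18.5 CPM in Ep300 knockout and 14.6, 12.3 and 13.3 CPM in control (0.34 ± 0.09, adjusted p = 0.0132), a call lost without control replicate 2 (0.0504), without Ep300-knockout replicate 3 (0.0544) and with only the groups compared (0.0541). Prdm11, a PR-domain protein of little-known function, stood at 11.2, 11.9 and 13.4 CPM in Ep300 knockout, against 9.59, 8.99 and 10.2 CPM in control (0.34 ± 0.10, adjusted p = 0.024). In each of the 3 genes the lowest Ep300-knockout library was above the highest control. The call on Prdm11 was lost in 6 alternatives, among them leaving out control replicates 1 (0.0694) or 2 (0.0763) and Ep300-knockout replicates 2 (0.0549) or 3 (0.102). Prmt2 stood at 22.1, 22.9 and 22.5 CPM in Ep300 knockout and 18.3, 21.2 and 17.9 CPM in control (0.24 ± 0.08, adjusted p = 0.0499) and lost its call in 15 of 21 alternatives, at adjusted p from 0.0588 to 0.218, 10 of them leaving out 1 library.

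With the length and GC offsets, 12 members were called higher and 1 lower in Ep300 knockout, where 10.2% and 12.3% of all tested genes were. The H3K4 methyltransferases then gave 6 of 9 higher, against 1 of 9 without the offsets, at a median of 0.21 with and 0.28 without them. In this group the third Ep300-knockout library ran highest: Kmt2d stood at 108, 154 and 162 CPM in the Ep300-knockout libraries, against 124, 101 and 126 CPM in control, and was not called (0.27 ± 0.16, adjusted p = 0.301). Kmt2c was at 61.6, 67.4 and 78.1 CPM in Ep300 knockout and 66.1, 55.6 and 63.7 CPM in control (0.16 ± 0.13, adjusted p = 0.47). The groups overlap for both genes. The genes with the longest exons stood at a median log2 difference from the control mean of -0.03, -0.02 and 0.11 in Ep300-knockout replicates 1, 2 and 3, and of 0.07, -0.11 and 0.03 in the controls. Without Ep300-knockout replicate 3, 2 members were called, against 6 with it. Ezh1, Ezh2, Kdm1a, Kdm6a, Kdm6b, Ehmt2, Setdb1, Prmt1 and Prmt5 were not called, with log2 fold changes from -0.19 up to 0.17.

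Where Crebbp knockout was the label, Kdm5b alone was called among the 59 members by this test, where 3.13% of all tested genes were (1.52% higher and 1.61% lower). It stood at 49.8, 48.2 and 39.1 CPM in Crebbp knockout, against 38.0, 32.2 and 35.6 CPM in control, just without overlap (0.37 ± 0.10, adjusted p = 0.0481). The call was lost in 15 of 21 alternatives, at adjusted p between 0.0506 and 0.172, including the removal of any 1 control or of Crebbp-knockout replicate 1 or 2 (0.172 each). With DESeq2 and with the length and GC offsets, 3 members each were called, Kdm5b among them, where DESeq2 called 8.03% and the offsets 7.58% of the genes they tested. An unadjusted p under 0.05 was found for 9 members and for 17.7% of all tested genes. Kdm4b, next in order, stood at 17.2, 17.1 and 15.3 CPM in Crebbp knockout and 14.6, 12.3 and 13.3 CPM in control (0.30 ± 0.09, adjusted p = 0.0806). Prdm16 stood at 93.5, 91.8 and 83.9 CPM in Crebbp knockout, against 94.4, 86.8 and 95 CPM in control, which overlap (-0.04 ± 0.07, adjusted p = 0.81). The third Crebbp-knockout library ran lowest for the large KMT2 genes, with Kmt2d at 137, 142 and 102 CPM and Kmt2c at 67.8, 69.5 and 49.2 CPM in the 3 libraries, and its genes with the longest exons stood at a median of -0.10 from the control mean, against 0.09 and 0.08 in the other Crebbp-knockout libraries.

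The double knockout was also set against each knockout alone. Against Ep300 knockout, 24 members were higher and 2 lower, where 34.6% of all tested genes were called (18% higher, 16.6% lower). With the length and GC offsets, 20 were higher and 9 lower, where 18.2% and 18.1% of all tested genes were, and the median over the members was 0.06, against 0.20 without them. Kdm5b stood at 89.4, 94.3 and 82.5 CPM in double knockout and 43.7, 43.7 and 50 CPM in Ep300 knockout (0.95 ± 0.10, adjusted p = 3.39e-06), followed by Kdm7a (0.57 ± 0.07) and Kmt5b (0.45 ± 0.07). Prdm16 was lower in double knockout by a log2 fold change of -0.44 ± 0.07 (adjusted p = 0.000194). The count of 26 depended on the libraries: it was 16 without Ep300-knockout replicate 1, 15 without replicate 2, 17 without double-knockout replicate 1 and 15 without replicate 2. Kdm6a, not called against control, was called higher here (0.24 ± 0.07, adjusted p = 0.0204), at 54.6, 57.9 and 55.1 CPM in double knockout against 48.0, 44.7 and 49.1 CPM in Ep300 knockout. That call was lost without Ep300-knockout replicate 2 (0.0929) or double-knockout replicate 2 (0.0841).

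Against Crebbp knockout, 28 members were higher and 4 lower in double knockout, where 43.2% of all tested genes were called (21.4% higher, 21.8% lower). With the offsets, 28 were higher and 10 lower, where 22.7% and 23.5% of all tested genes were. The smallest adjusted p-values were those of Prdm16 (-0.78 ± 0.07, adjusted p = 2.37e-07), Kdm5b (0.96 ± 0.10, adjusted p = 1.23e-06), Kmt5b (0.56 ± 0.07) and Kmt2e (0.67 ± 0.10). Prmt1 was among the lower, at 175, 178 and 173 CPM in double knockout and 193, 203 and 216 CPM in Crebbp knockout. Its groups do not overlap, and the call was lost in 6 of 21 alternatives, which included leaving out Crebbp-knockout replicate 2 or 3 or any 1 double-knockout library (adjusted p from 0.0666 to 0.126). Ep300 knockout against Crebbp knockout gave 1 member higher and 1 lower, where 13.6% of all tested genes were called (6.26% higher, 7.37% lower): Prdm11 at 0.38 ± 0.10 (adjusted p = 0.0162) and Prdm16 at -0.34 ± 0.07 (adjusted p = 0.00261). Prdm11 was at 11.2, 11.9 and 13.4 CPM in Ep300 knockout and 9.99, 9.99 and 8.12 CPM in Crebbp knockout, and lost its call without Ep300-knockout replicate 3 (0.0598), without Crebbp-knockout replicate 3 (0.0603) and with only the groups compared (0.0579). With the offsets, 9 members were higher and 4 lower, where 20.2% of all tested genes were called. These comparisons share libraries with those above and are not independent of them.

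A last test asked whether the double-knockout log2 change equals the sum of the single-knockout log2 changes. It differed for 4 of 59 members, 3 higher and 1 lower, where 10.3% of all tested genes were called (5.33% higher, 4.96% lower). Ep300 and Crebbp, the targeted genes, were both called above the sum (median 0.62). Crebbp stood at 66.2, 68.7 and 57.1 CPM in double knockout and 36.8, 36.3 and 30.3 CPM in Crebbp knockout. The sum presumes that the double knockout carries the same lesions as the single knockouts, which was not tested. Kdm5b exceeded the sum by 0.58 ± 0.13 (adjusted p = 0.0138) and kept the call in all 20 alternatives. Its levels were 89.4, 94.3 and 82.5 CPM in double knockout, 43.7, 43.7 and 50 CPM in Ep300 knockout, 49.8, 48.2 and 39.1 CPM in Crebbp knockout and 38.0, 32.2 and 35.6 CPM in control. Prdm16 lay below the sum, at -0.40 ± 0.09 (adjusted p = 0.0145), with 52.6, 54.4 and 49.9 CPM in double knockout, 68.1, 70.1 and 74.4 CPM in Ep300 knockout, 93.5, 91.8 and 83.9 CPM in Crebbp knockout and 94.4, 86.8 and 95 CPM in control. It was not called without double-knockout replicate 3 (adjusted p = 0.05). In both genes the double-knockout libraries lie beyond every other library.

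Kdm7a exceeded the sum by 0.41 ± 0.10 (adjusted p = 0.0181), with 63.6, 62.0 and 64.6 CPM in Ep300 knockout and 76.5, 71.7 and 64.9 CPM in Crebbp knockout beside the values above. It was not called without control replicate 1 or 3 (adjusted p = 0.0508 each), Ep300-knockout replicate 2 (0.0517) or double-knockout replicate 2 (0.06). Kmt5b exceeded it by 0.36 ± 0.10 (adjusted p = 0.034), with 25.4, 24.0 and 25.8 CPM in Ep300 knockout and 24.2, 23.1 and 22.2 CPM in Crebbp knockout. Its call was lost in 10 of 20 alternatives, at adjusted p between 0.0544 and 0.102, 7 of them leaving out 1 library. The count of 4 was 2 without control replicate 1 or 3, Ep300-knockout replicate 2 or double-knockout replicate 2, and 9 without control replicate 2 and 10 without Ep300-knockout replicate 3. For the other 55 members no departure was called, and the standard errors, from 0.08 to 0.56 on the log2 scale, set what could be seen. The shortest genes of the table departed from the sum by a median of -0.28 and the longest by 0.15, a trend in which Kdm5b and Kmt5b lie in the longest 5% and Kdm7a and Prdm16 in the bin below. With the length and GC offsets, Kdm5b was at 0.46 ± 0.07, Kdm7a at 0.32 ± 0.08 and Prdm16 at -0.54 ± 0.06, all called, and Kmt5b at 0.24 ± 0.08 (adjusted p = 0.0544), among 7 members called where 14.4% of all tested genes were.

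**Figure D5:**
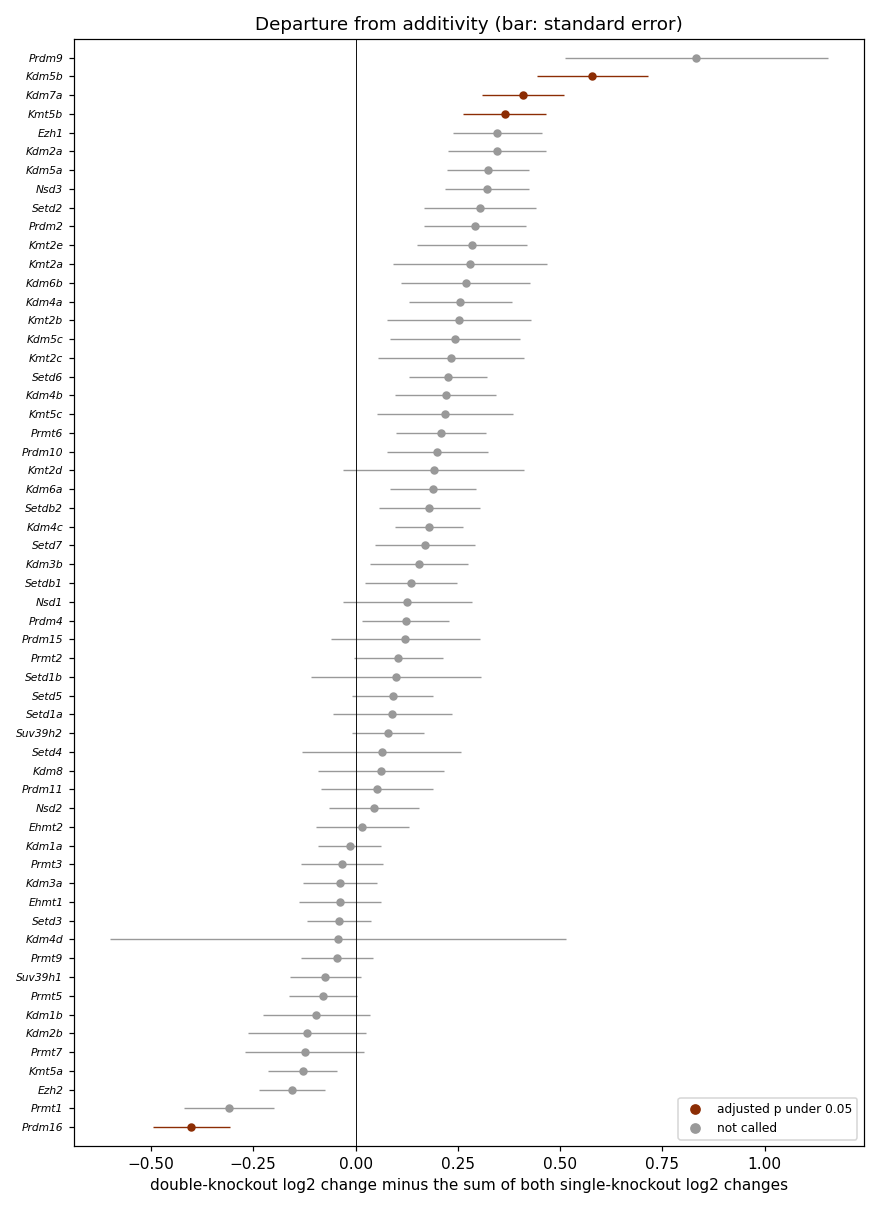
Double-knockout log2 change minus the sum of the single-knockout log2 changes for 58 tested members (bar: standard error). Kdm5b (0.58), Kdm7a (0.41), Kmt5b (0.36) and Prdm16 (-0.40) pass the threshold.

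The promoters of these 4 genes are shown because they carry the departures from additivity. Each run is the 250 bases before the RefSeq start on build GRCm38.p6, read 5′ to 3′ on the gene's strand. Kdm5b is on the plus strand (chr1:134559928-134560177), Kdm7a on the minus strand (chr6:39206774-39207023), Kmt5b on the plus strand (chr19:3767171-3767420) and Prdm16 on the minus strand (chr4:154636874-154637123). Capitals mark TGACG, the core of the cAMP response element that binds CREB, the factor CBP is named for, and GGGCGG, the GC box, on either strand.
Kdm5b: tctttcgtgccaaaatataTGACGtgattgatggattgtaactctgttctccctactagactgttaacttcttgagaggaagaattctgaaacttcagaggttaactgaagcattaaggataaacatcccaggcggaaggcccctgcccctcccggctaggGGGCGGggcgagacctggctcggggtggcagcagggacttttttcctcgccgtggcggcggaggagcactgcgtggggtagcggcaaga
Kdm7a: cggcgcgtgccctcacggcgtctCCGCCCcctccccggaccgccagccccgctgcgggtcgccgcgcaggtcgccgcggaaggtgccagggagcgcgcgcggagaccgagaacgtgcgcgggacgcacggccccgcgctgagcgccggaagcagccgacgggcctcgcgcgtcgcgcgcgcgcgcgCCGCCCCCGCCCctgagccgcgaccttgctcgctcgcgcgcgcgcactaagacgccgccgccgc
Kmt5b: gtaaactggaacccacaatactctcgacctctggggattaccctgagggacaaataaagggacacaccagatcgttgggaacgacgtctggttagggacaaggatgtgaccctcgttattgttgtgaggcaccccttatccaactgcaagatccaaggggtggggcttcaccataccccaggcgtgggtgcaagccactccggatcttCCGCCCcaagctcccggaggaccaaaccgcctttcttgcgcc
Prdm16: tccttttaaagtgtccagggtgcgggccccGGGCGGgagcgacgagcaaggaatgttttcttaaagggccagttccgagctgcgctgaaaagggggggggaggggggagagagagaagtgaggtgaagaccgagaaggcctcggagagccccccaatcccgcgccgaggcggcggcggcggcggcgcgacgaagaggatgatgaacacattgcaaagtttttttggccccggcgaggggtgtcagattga
The Kdm5b window holds 1 TGACG and 1 GC box, that of Kdm7a 3 GC boxes, the last of which adjoin, and those of Kmt5b and Prdm16 1 GC box each. The windows of Kdm7a, Kmt5b and Prdm16 hold no TGACG. The Kdm7a window, at 82.0% GC, is the richest of the 4 in CpG, with 56, against 13 in Kdm5b, 11 in Kmt5b and 22 in Prdm16. RefSeq windows matched 52 of the 67 members. TGACG stood in 5 of 23 matched members called higher in double knockout, 1 of 5 called lower, 12 of all 46 tested members with a window and 17.8% of the 32851 windows of the table. GGGCGG stood in 11 of 23, 4 of 5, 28 of 46 and 32.7%. The M-box core CATGTG, bound by the melanocyte factor MITF, stood in 2 of 23, 0 of 5, 4 of 46 and 12.3%, and TATAAA in 1 of 23, 0 of 5, 1 of 46 and 12.4%. Each member gave 1 window, whereas the windows of the table were not limited to tested genes or to 1 window a gene. The shares are therefore not like for like. A match is a description of the letters and not evidence of binding.

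Partners of these enzymes outside the naming rule were read from lists. Of 68 tested genes of 5 lists, 25 were called higher and 18 lower in the libraries labelled double knockout, where 24.7% and 24.6% of all tested genes were. Of 11 tested subunits of KMT2 complexes, 6 were called higher and 2 lower in the libraries labelled double knockout, with a median of 0.21. With the length and GC offsets, 5 were called higher and 4 lower, where 25.6% and 26.7% of all tested genes were. Ncoa6, a coactivator subunit of the KMT2C and KMT2D complexes, was higher by 0.61 ± 0.12, and Dpy30, a small core subunit, was lower by a log2 fold change of -0.81 ± 0.14 (adjusted p = 0.000192). Of 11 PRC2 subunits, 2 were higher and 2 lower (2 and 3 with the offsets), a share below that of all tested genes. Jarid2, which guides PRC2 to chromatin, was lower at -0.72 ± 0.09 in double knockout (adjusted p = 1.03e-05) and at -0.64 ± 0.09 in Ep300 knockout (adjusted p = 0.000104), and Phf19, a Polycomb-like subunit, was higher at 0.61 ± 0.08 and 0.45 ± 0.08 in the same comparisons.

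The counts of the next 3 lists stand beside 24.7% of all tested genes called higher and 24.6% lower in double knockout. Of 13 partners of other members, 8 were higher and 3 lower in double knockout. Rcor1 and Rcor2, the CoREST partners of LSD1, were higher by 0.64 ± 0.10 and 0.97 ± 0.17. Of 19 other writers and erasers tested, 5 were higher and 6 lower, with the demethylase Phf2 at 0.86 ± 0.13 and the methyltransferase Smyd2 at -0.53 ± 0.07. Of 14 readers of methylated lysine, 4 were higher and 5 lower, among the lower Cbx2, a Polycomb reader, at -0.61 ± 0.07, and the heterochromatin proteins Cbx1 and Cbx3 at -0.47 ± 0.07 and -0.51 ± 0.07. With the offsets, the partners gave 7 higher and 4 lower, the other writers and erasers 4 and 9, and the readers 3 and 7. Of all tested genes, 25.6% were then called higher and 26.7% lower. In Crebbp knockout, edgeR called 0 of the 68 tested genes of these 5 lists, limma-voom 0, DESeq2 4 and edgeR with the offsets 3. Of all genes tested, these fits called 3.13%, 2.66%, 8.03% and 7.58%, in the same order. In edgeR, 14 of the 68 had an unadjusted p under 0.05, as had 17.7% of all tested genes. In Ep300 knockout, edgeR called 3 of the 68 higher (Phf19, Rcor2 and Cbx8) and 4 lower (Smyd2, Jarid2, Cbx2 and Ing2), where it called 16.1% of all tested genes. DESeq2 called 13 of the 68, limma-voom 7 and edgeR with the offsets 23, against 18.7%, 16.1% and 22.5% of all genes tested. In edgeR, 22 had an unadjusted p under 0.05, for which no share of all genes is given here.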

How the data were processed

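Raw read counts per Ensembl gene in 12 libraries (stranded mRNA kit) were deposited by the authors. Bcl2fastq, HISAT2, HTSeq and build mm10 are named in the submitters' processing notes; no version, annotation or strand setting is recorded in the labels or file headers used here. GENCODE M21 (GRCm38) annotated 54723 of 54752 genes and gave union exon lengths and the GC content of the longest transcript.

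Counts were fitted with edgeR 4.0.16 in R 4.3.3 (filterByExpr, TMM, robust quasi-likelihood F test, 1 model of 4 groups over 12 libraries). P-values were adjusted by Benjamini-Hochberg over 18434 genes per comparison, threshold 0.05. CPM values are TMM-scaled, and RPKM adds exon length. A value after ± is an SD for a mean or ratio and a standard error, |log2 fold change| divided by the root of F, for a log2 fold change. The departure from additivity is the interaction contrast. Length and GC offsets were natural splines fitted per library after a prior count of 1, over tested genes with a positive mean log2 CPM. They were applied to all tested genes with known length and GC content, so the scarce Kdm4d and Prdm9 lay outside the genes fitted. Alternatives were RLE size factors, no filter, a filter of 1 CPM in 3 libraries, DESeq2 1.42.0, limma-voom (limma 3.58.1), only the groups compared, a block for replicate number, the offsets with and without that block, and leaving out each library. The additivity test needs all groups and so has 20 alternatives. The fit was also run on simulated data with few changed genes and no length or GC trend. That does not test it under changes as wide as those of the double knockout.

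The members, role groups, partner lists and markers were chosen with earlier results of these data known. Library values cover the 6 called members with the smallest adjusted p in each direction against control and the 4 in each other comparison. They also cover 13 fixed members (Ezh1, Ezh2, Kdm6a, Kdm6b, Kmt2c, Kmt2d, Kdm1a, Ehmt2, Setdb1, Kdm5b, Prmt1, Prmt5, Prdm1). For many of these members, only libraries of the groups compared are listed, not all 12. Others with library values (Kmt2a, Prdm9, Kdm4d) illustrate their role group. 1 member and 1 marker enter the counts and sums but are not reported here by name. Promoters came from RefSeq (GRCm38.p6).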

Additional observations from a re-analysis of the deposited data

Results flagged for a closer look

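For 4 members the difference that goes with the Crebbp-knockout label was not the same with and without the Ep300-knockout label, by the interaction contrast of edgeR's fit with adjustment over all tested genes, where 10.3% of all tested genes were called. Kdm5b had an interaction of 0.579 on the log2 scale: the double knockout differed from the Ep300 knockout by 0.95 ± 0.10, and the Crebbp knockout from control by 0.37 ± 0.10. Prdm16 had -0.402, from -0.44 ± 0.07 between double and Ep300 knockout and -0.04 ± 0.07 between Crebbp knockout and control. Kdm7a had 0.409, from 0.57 ± 0.07 and 0.16 ± 0.07. Kmt5b had 0.365, from 0.45 ± 0.07 and 0.08 ± 0.07, and was no longer called with the length and GC offsets (adjusted p = 0.0544). The 4 values rest on the same 12 libraries as the comparisons above. Ep300 and Crebbp themselves were both called higher in this contrast (median 0.62). Whether the double knockout carries the same lesions as the single knockouts was not tested. Melanocyte markers, exon length and GC content moved with the double-knockout label, and the part of the melanocyte markers was not tested.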

How the results depend on the processing

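In double knockout against control, 39 members were called, and 31 to 41 under the 21 alternatives. In Ep300 knockout against control, 6 became 10 with no filter, 3 with only the groups compared and 13 with length and GC offsets, with or without the block (2 to 8 leaving out 1 library). In Crebbp knockout, 1 became 2 with no filter, 3 with DESeq2, 3 with offsets, 2 with offsets and block, and 0 with RLE factors, 1 CPM, limma-voom, only the groups compared or the block (0 to 1 leaving out 1 library). Leaving out 1 library gave 31 to 39 called for double knockout against control, 15 to 30 against Ep300 knockout (26 with all libraries) and 22 to 33 against Crebbp knockout (32 with all libraries), not all of them among those called with all libraries. Ep300 against Crebbp knockout gave 2, which became 1 with only the groups compared, 13 with offsets and 8 with offsets and block (1 to 2 leaving out 1 library). Additivity gave 4, which became 7 with 1 CPM, 9 with DESeq2, 7 with offsets and 6 with offsets and block (2 to 10 leaving out 1 library).

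Among the 24 tested members picked by the naming rule, a change of sign with a call came only with the offsets. The values concerned were not called in the main fit. Ehmt2 went to -0.16 in double knockout against control (-0.16 with block) and to -0.17 against Crebbp knockout (-0.17 with block). Prdm11 went to -0.17 in double knockout against Ep300 knockout. Among 3504 values of these 24 members, 3298 kept direction and side of the threshold, 134 lost a call, 67 gained one and 5 reversed. Calls on Prdm10 (0.0538) and Prmt7 (0.0552) in double knockout against control were lost with the block. The labels state no pairing by replicate number, and the correlations showed none. Same-numbered libraries correlated at -0.17 to 0.107 (18 pairs), others at -0.225 to 0.212, and 1 of 12 correlated best with its own number. A weak shared effect could be missed this way. With the replicate number as a block, 4 members were called for Ep300 and 0 for Crebbp knockout against control, 36 for double knockout against control, 20 against Ep300 and 30 against Crebbp knockout, 2 between the single knockouts and 3 for additivity. Causes of these changes were not tested. Precision is limited by 3 libraries a group, a biological coefficient of variation of 9.46%, and the low counts of Kdm4d and Prdm9.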
